A study of Homo sapiens with 18 samples.

Results

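The HOX genes are the homeobox transcription factors of 4 clusters, HOXA, HOXB, HOXC and HOXD, and 38 of them were followed here among 20329 genes counted in HAP1 cells. They were taken as a fixed set of gene symbols, by a rule that uses no measured value, though with earlier results of these data known. The set held 10 genes in cluster A, 10 in cluster B, 9 in cluster C and 9 in cluster D. HAP1 is a near-haploid human cell line that derives from a chronic myeloid leukaemia line but grows attached to the dish. Polyadenylated RNA was sequenced in 6 groups of 3 samples. Control A and control B were wild-type cells. *ΔWAPL* cells of clone 3.3 and clone 1.14 carried a blasticidin resistance cassette inserted into WAPL by CRISPR, *ΔSCC4* cells carried a puromycin resistance cassette in SCC4, and *ΔWAPL*/*ΔSCC4* cells were made by inactivating SCC4 in *ΔWAPL* cells, here those of clone 3.3. The labels number the controls in series A and B, and by the run in which they were sequenced clone 3.3, *ΔSCC4* and *ΔWAPL*/*ΔSCC4* stood with control A and clone 1.14 with control B. Each knockout group was thus 1 clone, so the effect of a gene's loss and the peculiarities of its clone cannot be told apart within it, and clone and set cannot be told apart between the *ΔWAPL* groups. Nothing in the labels says that the 3 samples of a group came from separate cultures. All p-values therefore measure the spread between these samples, which may be technical.

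HOX genes set the identity of body segments along the head-to-tail axis of the embryo. Within a cluster the genes lie in the order in which they are used along that axis, with the low-numbered, anterior genes at the 3′ end and the high-numbered, posterior genes at the 5′ end, and genes with the same number in different clusters are paralogues. The clusters are also classic examples of genes whose activity is partitioned by chromatin domains with boundaries at CTCF sites. Cohesin, the ring-shaped complex that forms chromatin loops, is loaded by the SCC2/SCC4 complex and released by WAPL. The comparisons ask how the HOX genes read out in cells that lack the release factor, the loader subunit, or both.

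On GRCh37, cluster A spans chr7:27139973-27239710, cluster B chr17:46605888-46806112, cluster C chr12:54332615-54449814 and cluster D chr2:176957449-177055635. Cluster B is the longest, with 200.2 kb, because HOXB13 lies 103.6 kb beyond HOXB9, measured between the 3′ ends of the genes. The 5′ end of cluster D held genes that moved in opposite directions: HOXD13, which shapes digits and the genital tubercle, HOXD11, which shapes the forearm and lower back, and HOXD10, which takes part in the patterning of hindlimb motor neurons. HOXD13 and HOXD11 lie 13.8 kb apart and HOXD11 and HOXD10 10.2 kb apart. Their upstream sequences are therefore given, each 250 bases long and ending just before the transcription start in RefSeq, on the plus strand of GRCh37. Capitals mark CACGTG, and TATAAA on either strand.
HOXD13, chr2:176957199-176957448: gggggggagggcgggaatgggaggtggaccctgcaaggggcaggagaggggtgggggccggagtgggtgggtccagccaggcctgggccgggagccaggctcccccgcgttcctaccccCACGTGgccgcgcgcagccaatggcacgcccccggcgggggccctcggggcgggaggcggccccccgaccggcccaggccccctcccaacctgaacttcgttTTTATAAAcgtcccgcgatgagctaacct
HOXD11, chr2:176971758-176972007: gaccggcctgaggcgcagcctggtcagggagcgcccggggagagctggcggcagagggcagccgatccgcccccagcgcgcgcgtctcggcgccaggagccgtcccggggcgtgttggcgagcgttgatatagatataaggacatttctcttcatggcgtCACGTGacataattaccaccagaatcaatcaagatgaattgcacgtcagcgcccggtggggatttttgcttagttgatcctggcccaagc
HOXD10, chr2:176981256-176981505: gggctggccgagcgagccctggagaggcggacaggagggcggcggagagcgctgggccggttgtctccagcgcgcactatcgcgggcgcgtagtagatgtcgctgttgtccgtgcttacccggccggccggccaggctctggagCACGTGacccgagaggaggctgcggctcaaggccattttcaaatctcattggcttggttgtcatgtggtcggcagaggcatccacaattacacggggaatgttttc
CACGTG, a palindrome known as an E-box, stood in each of the 3 windows, at 131 bases before the start of HOXD13, 90 before that of HOXD11 and 106 before that of HOXD10. TATAAA stood only in the HOXD13 window of the 3, in capitals as a run in which the matches on both strands overlap. Over the RefSeq promoter windows of all genes, searched on both strands, CACGTG was in 7.26% of 35116 windows and TATAAA in 11.5%. RefSeq windows were at hand for 20 of the 38 HOX genes, with 27 windows in all, of which 9 held CACGTG, 5 TATAAA and 18 CCAAT, the last against 34.6% of all windows. HOXB6, HOXB9 and HOXC11 were not among the 20. The motifs were picked after the sequences had been seen, and a match is a run of letters, not a measured binding site.

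The targeted genes were read first. WAPL stood at 99.2 ± 21.5 CPM (counts-per-million of the reads on genes, TMM-normalized; mean ± SD, n = 3) in control A, 43.7 ± 5.65 in *ΔWAPL* 3.3, 45.5 ± 3.94 in *ΔWAPL*/*ΔSCC4*, 85.1 ± 16.1 in *ΔSCC4*, 121 ± 14.6 in control B and 41.3 ± 2.89 in *ΔWAPL* 1.14. Transcripts of WAPL thus remained in the knockout clones at a reduced level, with a log2 fold change of -1.20 (SE 0.17, adjusted p = 0.000209) in clone 3.3 and -1.55 (SE 0.10, adjusted p = 7.44e-05) in clone 1.14 (edgeR's quasi-likelihood test, Benjamini-Hochberg adjusted over all genes, as for every adjusted p here). SCC4 is annotated as MAU2, which fell from 65.6 ± 6.25 CPM in control A to 0.702 ± 0.243 in *ΔSCC4* and 0.934 ± 0.1003 in *ΔWAPL*/*ΔSCC4*, with 56.1 ± 3.68 in clone 3.3. Reads on genes ranged from 10007646 to 20711127 per sample, with the lowest total in a *ΔSCC4* sample. The haematopoietic markers PTPRC, CD33, MPO, SPI1, CD34 and ITGAM summed to between 0.0603 and 0.553 CPM per sample. Of these 6, 2 had no read in any sample and no gene had more than 7 reads in a sample. VIM, CDH2, COL4A1 and FN1, genes of attached mesenchymal-like cells, summed to between 342.6 and 786.5 CPM. COL4A1 had only 2 reads over all 18 samples, and VIM alone stood at 586 ± 73.5 CPM in control A. In such bulk samples fewer cells that express a gene and less RNA per cell cannot be told apart.

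HAP1 cells expressed all 4 clusters, and the posterior end of each cluster held one of its most expressed genes. Levels of different genes were compared only as CPM per kb of exon, written RPKM. In control A, 7 of 10 genes of cluster A, 5 of 10 of cluster B, 4 of 9 of cluster C and 3 of 9 of cluster D reached 1 RPKM. Cluster A was highest in its posterior part: HOXA2, HOXA3 and HOXA4 stood between 0.248 and 0.592 RPKM, HOXA5 at 3.06 ± 0.353 and HOXA6 at 1.74 ± 0.502 (SD, n = 3), and HOXA7 to HOXA13 between 8.62 and 18.8. At its top HOXA13, a gene of digits and hindgut, had 18.8 ± 4.12 RPKM, HOXA7 17.8 ± 2.17 and HOXA9, known from leukaemias, 15.8 ± 1.798, and these neighbours in the order did not differ beyond their spread. HOXA11 followed with 10.1 ± 1.03 and HOXA10 with 8.62 ± 0.433.

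Cluster B had its expressed genes at both ends with a gap between them. HOXB4, a factor of blood stem cells, led with 12.1 ± 0.736 RPKM in control A, followed by HOXB13, the tail-bud and prostate gene, with 8.53 ± 1.698 and HOXB2, a hindbrain gene, with 8.04 ± 0.614, whose SDs overlapped. HOXB9, a gene of the thoracic skeleton, had 2.69 ± 0.131, HOXB3 1.01 ± 0.195 and HOXB6 0.763 ± 0.367. HOXB5, HOXB7 and HOXB8 stood between 0.02704 and 0.155 RPKM, and HOXB1 had no read in control A and 1 read over all 18 samples.

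In cluster C the levels alternated along the chromosome. HOXC13, a gene of hair and nails, had 6.61 ± 0.389 RPKM in control A and HOXC8 6.19 ± 0.588, which did not differ beyond their spread. HOXC10, a hindlimb gene, had 1.63 ± 0.1301, HOXC6 1.42 ± 0.157 and HOXC11, a gene of the hindlimb and kidney, 0.572 ± 0.123. HOXC4, HOXC5, HOXC9 and HOXC12 lay between 0.0227 and 0.2995.

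Cluster D was led by HOXD13 with 7.03 ± 0.1599 RPKM in control A, ahead of HOXD8 with 4.19 ± 0.547 and HOXD3, a gene of the anterior vertebrae, with 1.43 ± 0.2904. The genes between HOXD13 and HOXD8 were low: HOXD9, HOXD10, HOXD11 and HOXD12 stood between 0.0322 and 0.332 RPKM. HOXD4 had 0.254 ± 0.0221 and HOXD1 no read in control A. HOXD10 and HOXD11 share 18.2% and 21.4% of their exon bases with each other or another counted gene on the same strand, and HOXB6 16.6%, HOXC6 16.1%, HOXA9 13.1% and HOXA10 9.9%, so reads in these stretches could be lost or split in counting and their levels are uncertain to that extent.

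**Figure D1:**
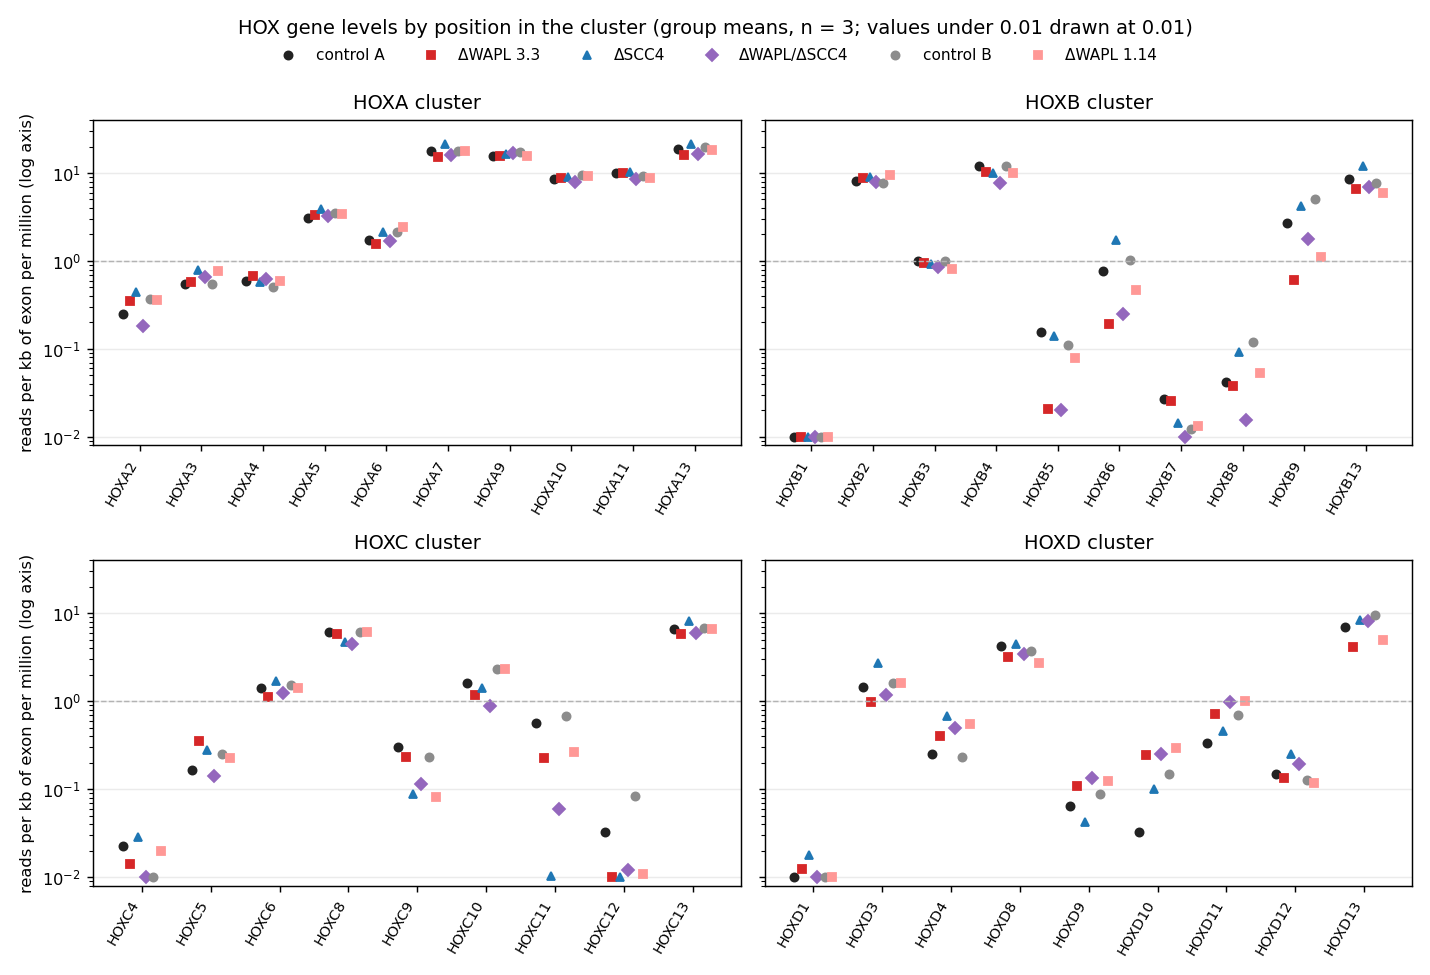
Mean level (n = 3) of each of the 38 HOX genes in the 6 groups, in RPKM on a log axis, with genes of each cluster in order from the anterior to the posterior end and values under 0.01 drawn at 0.01; the dashed line is 1. In cluster A the levels from HOXA7 to HOXA13 are above those of HOXA2 to HOXA6 and the groups part at HOXA2, while in clusters B, C and D groups part at HOXB6, HOXB9, HOXC11, HOXD10, HOXD11 and HOXD13.

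Summed over its genes, cluster A gave 256 ± 20.7 CPM in control A and 269.9 ± 6.03 in control B. It stood at 237 ± 16.2 in *ΔWAPL* 3.3, 254 ± 1.896 in *ΔWAPL* 1.14, 285 ± 25.9 in *ΔSCC4* and 238 ± 12.6 in *ΔWAPL*/*ΔSCC4*. The cluster A samples of control A (233, 264 and 272) overlapped those of every other group of its set. Cluster B summed to 94.4, 84.5 and 81.4 in control A and 67.4, 68.5 and 77.3 in *ΔWAPL* 3.3, and to 89.8, 93.2 and 88.1 in control B and 69.9, 72.04 and 72.3 in *ΔWAPL* 1.14. Every *ΔWAPL* sample was below every control of its set. The same held for cluster D, with 35.1, 35.6 and 33.96 in control A, 25.9, 24.1 and 25.1 in *ΔWAPL* 3.3, 41.4, 42.1 and 40.2 in control B and 30.1, 28.5 and 28.2 in *ΔWAPL* 1.14. Cluster C summed to 42.1 ± 1.93 in control A, 36.4 ± 2.87 in *ΔWAPL* 3.3, 44.9 ± 1.45 in control B and 42.3 ± 2.29 in *ΔWAPL* 1.14. In *ΔSCC4* cluster B summed to 105, 104 and 96.6 and cluster D to 41.4, 45.8 and 46.9 CPM, above every control A sample, and in *ΔWAPL*/*ΔSCC4* cluster B summed to 70.3, 61.1 and 71.3 and cluster C to 33.3, 29.9 and 32.96, below every control A sample. These sums are a description and were not tested.

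*ΔWAPL* cells expressed less HOXB9, HOXB6, HOXC11 and HOXD13 than control cells in both clones. HOXB9 fell most, to about the same fraction of control in each clone, and more HOXD11 was found in clone 3.3. Of the 38 genes, 25 had enough reads to be tested in each clone. In *ΔWAPL* 3.3 against control A, 5 of the 25 passed an adjusted p of 0.05, 1 higher and 4 lower, against 8.07% of all genes tested (4.17% higher and 3.9% lower). In *ΔWAPL* 1.14 against control B, 8 of 25 passed, 1 higher and 7 lower, against 20.1% of all genes (8.7% higher and 11.4% lower). The 4 named genes, 16.0% of the 25, passed with a lower level in both clones, and 5.59% of all genes tested in both passed in the same direction. The median log2 fold change of the 25 genes was -0.19 in clone 3.3 and -0.07 in clone 1.14, and that of all genes -0.001 and 0.002.

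HOXB9 measured 7.29, 6.97 and 6.61 CPM in control A and 1.45, 1.63 and 1.595 in *ΔWAPL* 3.3. In the other set it measured 12.03, 13.98 and 13.1 CPM in control B and 2.81, 2.97 and 2.896 in *ΔWAPL* 1.14. The groups did not overlap in either set, and the samples of clone 1.14 stood above those of clone 3.3 as control B stood above control A. The log2 fold change was -2.18 (SE 0.20, adjusted p = 2.895e-06) in clone 3.3 and -2.18 (SE 0.10, adjusted p = 1.99e-05) in clone 1.14. Leaving out any 1 library kept this call, with log2 fold changes between -2.22 and -2.11 in clone 3.3 and between -2.22 and -2.12 in clone 1.14.

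HOXB6, which lies 25.4 kb from HOXB9 and acts in the thoracic skeleton and in blood progenitors, measured 3.06, 1.23 and 1.67 CPM in control A and 0.548, 0.354 and 0.598 in *ΔWAPL* 3.3, and 2.32, 3.09 and 2.59 in control B and 1.11, 1.42 and 1.09 in *ΔWAPL* 1.14. Control A replicate 1 was the highest of its group, and still every *ΔWAPL* sample was below every control of its set. The log2 fold change was -1.97 (SE 0.40, adjusted p = 0.00432) in clone 3.3, where HOXB6 reached the count filter in the control A samples only, and -1.15 (SE 0.19, adjusted p = 0.00557) in clone 1.14. Between HOXB6 and HOXB9, HOXB7 and HOXB8 had at most 2 and 8 reads in any sample and were not tested, so the gene-level readout has a gap there.

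HOXC11 measured 1.95, 2.22 and 1.43 CPM in control A and 0.847, 0.566 and 0.797 in *ΔWAPL* 3.3, and 2.39, 2.22 and 1.97 in control B and 1.06, 0.8902 and 0.664 in *ΔWAPL* 1.14, which rests on 90, 37, 103 and 46 reads per group. The groups of each set did not overlap. Its log2 fold change was -1.33 (SE 0.29, adjusted p = 0.00842) in clone 3.3 and -1.31 (SE 0.21, adjusted p = 0.00462) in clone 1.14. The call in clone 3.3 was lost without control A replicate 2 (adjusted p = 0.0572) and without clone 3.3 replicate 2 (0.0524). The neighbouring HOXC10, 12.6 kb away, had a log2 fold change of -0.49 in clone 3.3 and -0.01 in clone 1.14 and passed in neither. In one fit over all 18 samples HOXC10 passed in clone 3.3 (log2 fold change -0.47, adjusted p = 0.0448).

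HOXD13 measured 17.3, 17.1 and 16.6 CPM in control A and 10.8, 8.98 and 10.2 in *ΔWAPL* 3.3, and 23.4, 23.9 and 21.4 in control B and 12.5, 12.2 and 10.9 in *ΔWAPL* 1.14. All *ΔWAPL* samples were lower than all controls of their set. The log2 fold change was -0.79 (SE 0.15, adjusted p = 0.00359) in clone 3.3 and -0.95 (SE 0.09, adjusted p = 0.000375) in clone 1.14, and no single library decided either call.

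HOXD11, the neighbour of HOXD13, went the other way. It measured 0.651, 0.7397 and 0.715 CPM in control A and 1.295, 1.27 and 1.93 in *ΔWAPL* 3.3, without overlap, and its log2 fold change was 1.06 (SE 0.30, adjusted p = 0.0434). In the other set it measured 1.71, 1.48 and 1.18 in control B and 2.33, 1.72 and 2.29 in *ΔWAPL* 1.14, where the groups did not overlap either, and the log2 fold change of 0.55 (SE 0.21, adjusted p = 0.105) did not pass. The call in clone 3.3 was lost without any of the 3 control A replicates and without clone 3.3 replicates 2 or 3, with adjusted p between 0.0747 and 0.178, and with DESeq2 (0.132). HOXD10 had 0, 1 and 3 reads in control A and 14, 10 and 6 in clone 3.3, and 2, 8 and 8 in control B and 16, 6 and 16 in clone 1.14, too few to pass the count filter within a clone. Without that filter HOXD10 passed in clone 3.3, with a log2 fold change of 2.76 (adjusted p = 0.0058), and not in clone 1.14.

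In clone 1.14 smaller differences passed at 4 more genes. HOXD8 measured 9.64, 9.95 and 9.73 CPM in control B and 6.63, 7.72 and 7.12 in *ΔWAPL* 1.14, with a log2 fold change of -0.46 (SE 0.09, adjusted p = 0.0109). HOXB13 measured 22.5, 24.9 and 23.1 and 16.9, 18.1 and 18.9, a log2 fold change of -0.39 (SE 0.08, adjusted p = 0.0146). For each of them the clone lay below its controls without overlap. In clone 3.3 HOXD8 had a log2 fold change of -0.43 (SE 0.17, adjusted p = 0.171) and HOXB13 one of -0.41 (SE 0.18, adjusted p = 0.246). These were of similar size and did not pass, though HOXD8 passed there in one fit over all 18 samples (adjusted p = 0.0256). HOXD3 had a log2 fold change of -0.56 (SE 0.19, adjusted p = 0.103) in clone 3.3 and -0.02 in clone 1.14. In clone 3.3 it passed in one fit over all 18 samples (adjusted p = 0.0412) and without control A replicate 1 (0.0341).

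HOXB4 measured 24.7, 25.3 and 22.7 CPM in control B and 18.8, 20.5 and 20.3 in *ΔWAPL* 1.14, a log2 fold change of -0.29. HOXB2 measured 20.2, 18.5 and 18 and 24.1, 23.8 and 21.8, a log2 fold change of 0.29. These genes of the anterior part of cluster B thus differed in direction. In clone 3.3 HOXB4 had a log2 fold change of -0.27 (SE 0.15) and HOXB2 one of 0.12 (SE 0.15), neither past the threshold. The calls of HOXB4, HOXB2 and HOXD8 were lost with DESeq2 (adjusted p = 0.0981, 0.0957 and 0.0539). Leaving out single libraries ended the call of HOXB4 without control B replicates 1 or 2 or any clone 1.14 replicate, that of HOXB2 without control B replicates 2 or 3 or any clone 1.14 replicate (adjusted p up to 0.139 and 0.147), and that of HOXB13 without clone 1.14 replicates 1 or 2 (0.0702 and 0.056). One fit over all 18 samples also ended the calls of HOXB2 and HOXB13 (adjusted p = 0.0642 and 0.0755). Without clone 1.14 replicate 1 or 2, 5 HOX genes passed in this clone, against 11.1% and 13.4% of all genes. Without control A replicate 2 or clone 3.3 replicate 2, 3 passed in clone 3.3, against 5.69% and 5.44% of all genes.

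With both clones in one fit and the set as a covariate, 9 of 26 HOX genes tested passed, 2 higher and 7 lower, against 17.7% of all genes (8.56% higher and 9.13% lower). HOXB9 (-2.17 (SE 0.09)), HOXB6 (-1.46 (SE 0.25)), HOXC11 (-1.31 (SE 0.18)), HOXD13 (-0.86 (SE 0.08)), HOXD8 (-0.43), HOXB13 (-0.39) and HOXB4 (-0.27) had lower levels, given as log2 fold changes. HOXD10, with a log2 fold change of 1.53 (SE 0.46, adjusted p = 0.0313), and HOXD11, with 0.77 (SE 0.18, adjusted p = 0.00851), had higher levels. HOXD10 rests on 4, 18, 30 and 38 reads in control A, control B, clone 3.3 and clone 1.14, and its call was lost without 6 of the 12 libraries in turn: control A replicate 2, control B replicate 1, clone 3.3 replicates 1 or 2, or clone 1.14 replicates 1 or 3 (adjusted p between 0.0614 and 0.0763). It reached the count filter in 2 samples of each clone and in no control sample, so its entry into the test depended on the clones, where it is high. The p-values of this fit do not measure the spread between clones.

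Whether the clones differed was tested as an interaction, and 0 of 26 HOX genes passed in edgeR, against 2.65% of all genes (1.67% positive and 0.985% negative), with 2 at an unadjusted p under 0.05 and 0 with DESeq2. For HOXB9 the difference between clone 3.3 and clone 1.14 was 0.01 (SE 0.25) on the log2 scale, and for HOXD13 0.19 (SE 0.15). The largest differences among tested genes were 1.85 for HOXD10 and -0.80 for HOXB6, neither past the threshold, and genes of such low counts leave wide room for a difference.

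**Figure D2:**
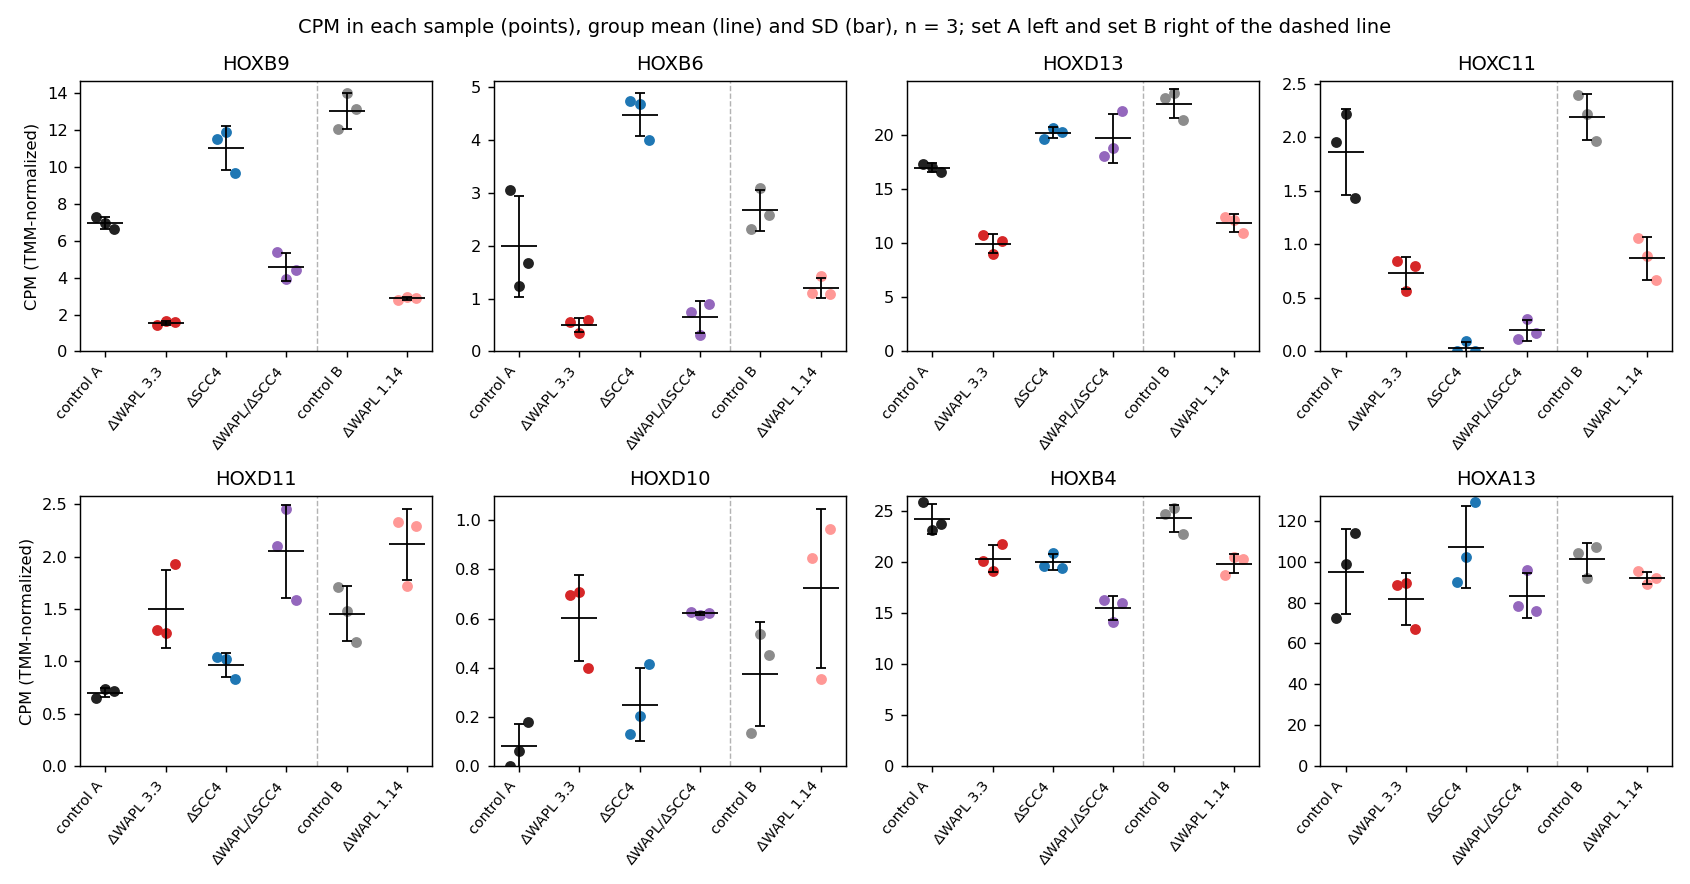
CPM of 8 HOX genes in each of the 18 samples (points) with the group mean (line) and SD (bar), n = 3 per group, set A to the left and set B to the right of the dashed line. HOXB9, HOXB6, HOXC11 and HOXD13 are lower in each *ΔWAPL* clone than in its controls, HOXC11 is close to 0 in *ΔSCC4*, HOXD13 in *ΔWAPL*/*ΔSCC4* lies above clone 3.3, and the groups overlap at HOXA13.

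Cluster A gave no call in either clone in the fit to all samples. None of its 10 tested genes passed in clone 3.3, clone 1.14 or both together with edgeR, and 0, 2 and 0 of them had an unadjusted p under 0.05 and 0 passed with DESeq2 in each. The log2 fold changes of cluster A ranged from -0.25 (HOXA7) to 0.50 (HOXA2) in clone 3.3 and from -0.17 (HOXA9) to 0.47 (HOXA3) in clone 1.14. Its most expressed gene HOXA13 measured 72.6, 98.7 and 113.9 CPM in control A and 88.5, 89.4 and 67.2 in clone 3.3, and 104, 92.1 and 107 in control B and 95.2, 89.1 and 91.8 in clone 1.14. The clones overlapped their controls in both sets, and the control A samples had the widest spread of the 6 groups. In clone 1.14, leaving out control B replicate 2 gave a call of HOXA13 (log2 fold change -0.20, adjusted p = 0.0404) and leaving out control B replicate 3 one of HOXA9 (-0.18, adjusted p = 0.0423). In *ΔWAPL*/*ΔSCC4* 0 of 9 tested cluster A genes passed against control A, and 0 of 10 passed against clone 3.3 and 0 of 10 between the controls in edgeR, with 0, 1 and 0 at an unadjusted p under 0.05 and 0 with DESeq2 in each.

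*ΔSCC4* cells had almost no HOXC11 and more HOXB6, HOXB9 and HOXD3 than control A. Of 25 HOX genes tested 4 passed, 3 higher and 1 lower, against 9.49% of all genes (5.45% higher and 4.03% lower), and the median log2 fold change was 0.22 over the HOX genes and -0.005 over all genes. HOXC11 had 30, 36 and 24 reads in control A and 0, 1 and 0 in *ΔSCC4*. A single read over 3 samples against 90 put control A 73.8 times above *ΔSCC4* at equal depth, with an exact 95% interval for counting error of 12.9 to 2949, and the adjusted p was 0.000211. The fitted log2 fold change of -5.80 depends on how edgeR treats counts near 0 and is no bound. HOXC11 reached the count filter in the control A samples only. Among the other genes of cluster C, HOXC8 stood at 11.4 ± 1.85 CPM against 14.96 ± 1.42 in control A (log2 fold change -0.40 (SE 0.17, adjusted p = 0.188)), and HOXC9 had 6 reads against 24 and HOXC12 0 against 5, too few to be tested. HOXC10 stood at 3.31 ± 0.536 CPM against 3.86 ± 0.308, and HOXC13 at 19.4 ± 2.06 against 15.6 ± 0.916, neither past the threshold.

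HOXB6 measured 4.75, 4.68 and 4.01 CPM in *ΔSCC4* against 3.06, 1.23 and 1.67 in control A, a log2 fold change of 1.16 (SE 0.29, adjusted p = 0.0316). HOXB9 measured 11.5, 11.9 and 9.67 against 7.29, 6.97 and 6.61, a log2 fold change of 0.65 (SE 0.16, adjusted p = 0.0253). HOXD3 measured 8.45, 9.57 and 12.2 against 4.297, 5.18 and 6.43, a log2 fold change of 0.91 (SE 0.21, adjusted p = 0.0186). All 3 genes were higher in every *ΔSCC4* sample than in every control A sample. For HOXB9, wild-type control B measured 12.03, 13.98 and 13.1 CPM in the other set, above every *ΔSCC4* sample. The calls of HOXB6 and HOXB9 were lost without control A replicates 2 or 3 or *ΔSCC4* replicates 1 or 2 (adjusted p between 0.0516 and 0.137 and between 0.0793 and 0.126), and that of HOXD3 without control A replicate 2 (0.0968). Without control A replicate 2 only HOXC11 was left, where 5.25% of all genes passed. Without any of the other 3 libraries 2 HOX genes passed, against 6.37% to 8.36% of all genes.

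Same-numbered samples of control A and *ΔSCC4* deviated together from their group means, so the comparison was also fitted with the replicate number as a block. This pairing was read from the same counts and is not in the labels, so the blocked p-values are not separate support for the calls. In the blocked fit 12 of 25 HOX genes passed, 9 higher and 3 lower, against 46.0% of all genes (22.3% higher and 23.7% lower), and all 4 genes named above remained. The blocked log2 fold changes were 1.15 (adjusted p = 0.00211) for HOXB6, 0.65 (adjusted p = 0.000822) for HOXB9 and 0.92 (adjusted p = 0.000115) for HOXD3. The block added HOXA3 at 0.55 (adjusted p = 0.0314), HOXA7 at 0.25 (adjusted p = 0.0137), HOXA13 at 0.17 (adjusted p = 0.0459), HOXB13 at 0.50 (adjusted p = 0.000542), HOXC13 at 0.30 (adjusted p = 0.0244) and HOXD13 at 0.24 (adjusted p = 0.0382), all higher in *ΔSCC4*. HOXB4 at -0.30 (adjusted p = 0.0137) and HOXC8 at -0.39 (adjusted p = 0.0147) were lower. Without the block none of 10 cluster A genes passed in edgeR, with 1 at an unadjusted p under 0.05 and 0 with DESeq2, and HOXA7 measured 53.7, 50.4 and 50.7 CPM in *ΔSCC4* against 48.6, 42.1 and 38.3 in control A. With a share of 46.0% over all genes, the number of HOX genes in the blocked fit was near the background.

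*ΔWAPL*/*ΔSCC4* cells had more HOXD11 and less HOXC11, HOXC10, HOXB4 and HOXB9 than control A, and HOXD10 passed as higher on few reads. For HOXD13 the log2 fold change was 0.21 (SE 0.13), not past the threshold. Of 25 HOX genes tested 6 passed, 2 higher and 4 lower, against 7.95% of all genes (4.65% higher and 3.3% lower). This comparison, that of clone 3.3 and that of *ΔSCC4* share the control A samples, so their values are set side by side and not counted as separate evidence. HOXD10 had 11, 10 and 11 reads in *ΔWAPL*/*ΔSCC4* and 0, 1 and 3 in control A, a log2 fold change of 2.80 (SE 0.60, adjusted p = 0.0156). It reached the count filter in the double-knockout samples only, so its entry into the test depended on the group where it is high. Wild-type control B had 2, 8 and 8 reads of it. HOXD11 measured 2.11, 2.46 and 1.58 CPM against 0.651, 0.7397 and 0.715, a log2 fold change of 1.53 (SE 0.26, adjusted p = 0.00414). Both were higher in every double-knockout sample. In *ΔSCC4* alone HOXD11 measured 1.04, 1.02 and 0.829 CPM (log2 fold change 0.43 (SE 0.29)) and HOXD10 had 2, 2 and 6 reads, too few to be tested.

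HOXC11 measured 0.114, 0.307 and 0.1696 CPM in *ΔWAPL*/*ΔSCC4*, 10 reads in all, a log2 fold change of -3.22 (SE 0.38, adjusted p = 0.000333) from control A, again with only the control A samples reaching the count filter, which put it between *ΔSCC4* with 1 read and clone 3.3 with 37. HOXC10 measured 1.88, 2.15 and 2.26 CPM against 3.58, 4.19 and 3.81, a log2 fold change of -0.88 (SE 0.17, adjusted p = 0.00829). It had 2.44, 3.32 and 2.66 in clone 3.3 and 3.58, 3.66 and 2.695 in *ΔSCC4*, and the double-knockout samples were the lowest of the set. HOXB4 measured 16.3, 14.1 and 16 against 25.9, 23.1 and 23.7 in control A, a log2 fold change of -0.65 (SE 0.13, adjusted p = 0.00881), with 20.1, 19.1 and 21.8 in clone 3.3 and 19.6, 20.9 and 19.4 in *ΔSCC4*.

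HOXB9 measured 5.404, 3.93 and 4.41 CPM in *ΔWAPL*/*ΔSCC4*, below control A without overlap and above clone 3.3 without overlap. Its log2 fold change from control A was -0.60 (SE 0.16, adjusted p = 0.0422), smaller in size than the 0.89 between the wild-type control sets. That call was lost without control A replicate 2 or any double-knockout replicate (adjusted p between 0.0531 and 0.169) and with DESeq2 (0.082). The calls of HOXC10 and HOXD10 were lost without control A replicate 2 (adjusted p = 0.0522 and 0.0833) and without *ΔWAPL*/*ΔSCC4* replicate 1 (0.0595 and 0.0648). In that last fit 3 HOX genes passed, against 4.62% of all genes. HOXB6, with 0.7395, 0.307 and 0.905 CPM, had a log2 fold change of -1.58 (SE 0.43, adjusted p = 0.0517) and did not pass in edgeR, but passed with DESeq2 (adjusted p = 0.0106), without the count filter (0.023), in one fit over all 18 samples (0.00424), with the replicate block (0.0105) and without control A replicates 2 or 3 or *ΔWAPL*/*ΔSCC4* replicate 3 (0.0447, 0.0279 and 0.0439). The attached-cell markers moved in this comparison too: VIM had 254 ± 20.5 CPM in *ΔWAPL*/*ΔSCC4* and 586 ± 73.5 in control A, the 4 markers summed to 356.5 against 719.0 CPM, and 2 of 3 tested fell. VIM also fell in clone 1.14 (log2 fold change -0.43 (SE 0.07)) and from clone 3.3 to the double knockout (-0.79 (SE 0.11)), CDH2 fell in the latter (-0.54 (SE 0.12)) and in *ΔWAPL*/*ΔSCC4* against control A (-0.44 (SE 0.12)) and rose in *ΔSCC4* (0.60 (SE 0.14)), and both passed in the interaction, VIM at -0.66 (SE 0.15) and CDH2 at -1.14 (SE 0.17). Mean sums of the 4 markers were 575.9 CPM in clone 3.3, 729.3 in *ΔSCC4*, 639.0 in control B and 514.7 in clone 1.14. The part of these markers in the HOX values was not tested.

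**Figure D3:**
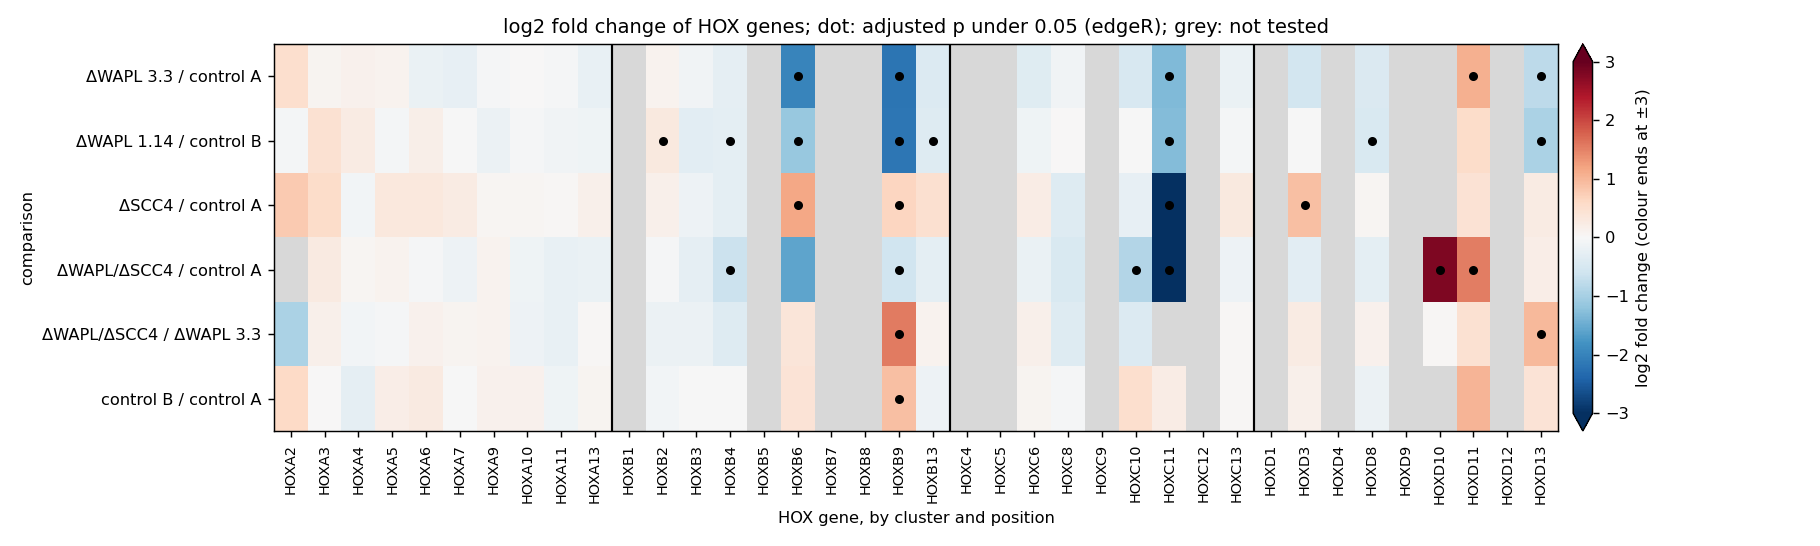
Log2 fold change of each of the 38 HOX genes (columns, by cluster and position) in 6 comparisons (rows), in blue where lower and red where higher in the first-named group, with the colour ending at ±3, a dot where the edgeR adjusted p is under 0.05 and grey where the gene was not tested. Cluster A has no dot in any row, HOXB9 has a dot in all 6, and both *ΔWAPL* rows share dots at HOXB6, HOXB9, HOXC11 and HOXD13.

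Against their parental clone, *ΔWAPL*/*ΔSCC4* cells had more HOXB9 and HOXD13. Of 25 HOX genes tested 2 passed, both higher, against 10.6% of all genes, with 6.05% higher and 4.55% lower. HOXB9 rose from 1.45, 1.63 and 1.595 CPM in clone 3.3 to 5.404, 3.93 and 4.41, a log2 fold change of 1.57 (SE 0.20, adjusted p = 5.14e-05). HOXD13 rose from 10.8, 8.98 and 10.2 CPM to 18.03, 18.8 and 22.2, a log2 fold change of 0.98 (SE 0.14, adjusted p = 0.000152). HOXD13 in *ΔWAPL*/*ΔSCC4* was above every control A sample (17.3, 17.1 and 16.6 CPM), while HOXB9 remained below them. The log2 fold change of HOXD13 from control A was 0.21, not past the threshold, and wild-type control B measured 23.4, 23.9 and 21.4 CPM. Both calls held without any 1 library. HOXB6, which had fallen with HOXB9 in clone 3.3, had a log2 fold change of 0.37 (SE 0.42), and HOXD11 of 0.46 (SE 0.25), neither past the threshold. HOXC11, which did not pass the count filter here, was called without it, with a log2 fold change of -1.90 (adjusted p = 0.0078).

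A test of the interaction asked whether the effect of losing WAPL differed with the presence of SCC4, where a positive value means that the double knockout lay above the sum of the single effects on the log2 scale. Of 28 HOX genes tested 4 passed, 3 with a positive and 1 with a negative value, against 11.3% of all genes (5.85% positive and 5.48% negative). HOXD13 gave 0.75 (SE 0.17, adjusted p = 0.00919) and HOXB9 0.93 (SE 0.23, adjusted p = 0.0154). For HOXD13 the 4 groups of the set measured 16.99 ± 0.386 CPM in control A, 9.97 ± 0.906 in clone 3.3, 20.2 ± 0.524 in *ΔSCC4* and 19.7 ± 2.23 in *ΔWAPL*/*ΔSCC4*, so that clone 3.3 was the lowest by a wide margin. For HOXB9 they measured 6.96 ± 0.3397, 1.56 ± 0.09704, 11.03 ± 1.19 and 4.58 ± 0.751 in the same order.

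HOXC11 gave an interaction of 3.93 (SE 1.01, adjusted p = 0.0188), which turns on the single read in *ΔSCC4*, and the call was lost without *ΔSCC4* replicates 1 or 3 or *ΔWAPL*/*ΔSCC4* replicate 2 (adjusted p between 0.0503 and 0.077). HOXA2, an anterior gene of the hindbrain and the second pharyngeal arch, was the negative one with -1.73 (SE 0.49, adjusted p = 0.0345). It had 8, 10 and 10 reads in control A, 17, 9 and 15 in clone 3.3, 10, 11 and 19 in *ΔSCC4* and 5, 7 and 10 in *ΔWAPL*/*ΔSCC4*. HOXA2 reached the count filter in 3 samples each of clone 3.3 and *ΔSCC4*, and in no sample of control A or *ΔWAPL*/*ΔSCC4*. Its entry into the test thus depended on the groups where it is high. The HOXA2 call was lost with DESeq2 (0.0791) and in 9 of the 12 fits without 1 library (adjusted p up to 0.0932), all but those without clone 3.3 replicate 2, *ΔSCC4* replicate 1 or *ΔWAPL*/*ΔSCC4* replicate 3. Without *ΔSCC4* replicate 3 or *ΔWAPL*/*ΔSCC4* replicate 2, 2 HOX genes passed, against 12.6% and 9.29% of all genes.

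The control sets, which had the same genotype, differed at HOXB9. It was the 1 gene of 25 tested that passed between control B and control A, against 0.64% of all genes (0.56% higher and 0.0799% lower), with a log2 fold change of 0.89 (SE 0.13, adjusted p = 0.0231). This is a difference between sets of wild-type cells of 6.96 ± 0.3397 and 13.04 ± 0.977 CPM, smaller than that of either *ΔWAPL* clone from its own controls. It was larger in size than the log2 fold changes of HOXB9 from control A in *ΔSCC4* (0.65) and *ΔWAPL*/*ΔSCC4* (-0.60). The call was lost without control A replicates 1 or 2 or control B replicate 1 (adjusted p between 0.0637 and 0.196). No HOX gene was left in these fits, where 0.0% to 0.174% of all genes passed. HOXD11 had a log2 fold change of 1.02 (SE 0.26, adjusted p = 0.1502) between the controls, close to that of clone 3.3 against control A, and did not pass. HOXD10 had 4 reads in control A and 18 in control B, too few to be tested. HOXD13 was higher in every control B sample than in every control A sample. Its log2 fold change of 0.42 (SE 0.12, adjusted p = 0.221) did not pass. In one fit over all 18 samples HOXD13, HOXD11 and HOXC10 passed too (adjusted p = 0.0277, 0.0434 and 0.0483), against 3.14% of all genes. What differed between the sets besides the run was not given in the sources used here.

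The other HOX genes are accounted for as follows. Of the 38, 28 were tested in at least 1 comparison, 23 in all 9, and 13 passed in at least 1. Another 13 were tested in all 9 and passed in none of the fits as designed, though some passed under an alternative: HOXA3 to HOXA7, HOXA9, HOXA10, HOXA11, HOXA13, HOXB3, HOXC6, HOXC8 and HOXC13. Among them HOXC8, a gene of the thoracic vertebrae and motor neurons, came closest in *ΔWAPL*/*ΔSCC4*, with 10.4, 10.8 and 11.4 CPM against 15.5, 16.03 and 13.4 in control A and a log2 fold change of -0.46 (SE 0.13, adjusted p = 0.0609). It passed there in one fit over all 18 samples (adjusted p = 0.026) and without control A replicate 3 (0.0331), in *ΔSCC4* in one fit over all samples (0.0492), and against clone 3.3 without clone 3.3 replicate 1 (0.0366). HOXC13 passed in *ΔSCC4* in one fit over all samples (log2 fold change 0.32, adjusted p = 0.0445). HOXC13, the most expressed gene of its cluster, measured 16.6, 14.9 and 15.3 CPM in control A, 13.2, 14 and 14.2 in clone 3.3, 19.8, 21.3 and 17.2 in *ΔSCC4* and 15.5, 12.5 and 14.5 in *ΔWAPL*/*ΔSCC4*, and 16.5, 15.2 and 16.5 in control B and 15.7, 16.3 and 14.5 in clone 1.14.

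HOXA2, HOXC11, HOXD4, HOXD10 and HOXD12 had enough reads in some comparisons only. HOXD4 had 14 reads in control A, 21 in clone 3.3, 30 in *ΔSCC4*, 29 in *ΔWAPL*/*ΔSCC4*, 13 in control B and 33 in clone 1.14, and HOXD12 between 16 and 26 reads in each group. The remaining 10, HOXB1, HOXB5, HOXB7, HOXB8, HOXC4, HOXC5, HOXC9, HOXC12, HOXD1 and HOXD9, passed the count filter in none, and no sample held more than 12 reads of any of them (HOXC5). HOXC9 had 24 reads in control A, 19 in clone 3.3, 6 in *ΔSCC4*, 10 in *ΔWAPL*/*ΔSCC4*, 19 in control B and 7 in clone 1.14, and HOXB5 had 14, 2, 11, 2, 10 and 8 in the same order. Without the count filter 1 of them was called, HOXC12 over both clones (log2 fold change -2.42, adjusted p = 0.0423), on 5 and 13 reads in control A and control B and 1 and 2 in clones 3.3 and 1.14. A group with no read may still hold up to 3 by counting error alone.

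HOX genes act with TALE homeodomain cofactors, and their activity is set by retinoic acid and by CDX factors, so lists of these genes and of genes next to the clusters were read beside them, and their counts stand against the shares of all genes given with each comparison, such as 8.07% in clone 3.3 and 20.1% in clone 1.14. In clone 3.3 more of the retinoid and CDX genes that passed were lower than higher, where 4.17% of all genes were higher and 3.9% lower. In clone 1.14 the split by direction was near that of all genes, of which 8.7% were higher and 11.4% lower. In clone 3.3, 6 of 16 tested passed in edgeR and 6 with DESeq2, 1 higher and 5 lower, among them CRABP1, which binds retinoic acid in the cytosol, with 3.05 ± 0.328 CPM in control A and 0.2797 ± 0.1297 in clone 3.3 (log2 fold change -3.41), ALDH1A2, which makes retinoic acid (-1.66), and STRA6, the retinol importer (-1.64). ALDH1A1, another enzyme of that step, was the 1 that rose, from 0.267 ± 0.0624 to 2.25 ± 0.199 CPM (log2 fold change 3.01). In clone 1.14, 3 were higher and 5 lower (8 with DESeq2), with CRABP1 at -4.52, ALDH1A2 at -2.91, STRA6 at -1.97 and ALDH1A1 at 2.01. Over both clones 2 were higher and 6 lower. The clones differed at ALDH1A2 by 1.27 (SE 0.19, adjusted p = 0.00167) and at CYP26B1 by -0.63 (SE 0.14, adjusted p = 0.0219), and ALDH1A2 was also higher in control B than in control A, by 1.34, as the 1 of 15 that passed there.

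In *ΔSCC4*, 3 of 15 retinoid and CDX genes passed, 1 higher and 2 lower, with CRABP2, another retinoic acid carrier, at -2.52 and STRA6 at -1.54. In *ΔWAPL*/*ΔSCC4* 6 of 15 passed, all lower, led by ALDH1A2 (-2.84), CYP26A1, which degrades retinoic acid (-1.69), and CRABP2 (-1.19). Against clone 3.3, 2 of 16 were higher, CRABP1 (3.36) and STRA6 (1.49), and 3 lower, with ALDH1A1 at -2.82 and ALDH1A2 at -1.20. The interaction passed at 6 of 16, 3 positive and 3 negative.

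Of 24 genes next to the clusters in the count files, 20 were tested. None passed in clone 3.3 in edgeR, with 2 at an unadjusted p under 0.05 and 0 with DESeq2. In clone 1.14, 3 were higher and 2 lower (4 with DESeq2), among them TTLL6, a tubulin-modifying enzyme near the 5′ end of cluster B, with 1.29 ± 0.251 CPM in control B and 0.499 ± 0.0958 in clone 1.14 (log2 fold change -1.39). Over both clones TTLL6 was the 1 that passed in edgeR, at -1.13, with 8 at an unadjusted p under 0.05 and 4 passing with DESeq2. In *ΔSCC4* 1 passed, CALCOCO1, which flanks cluster C, at 41.2 ± 5.33 against 20.6 ± 1.16 CPM, in *ΔWAPL*/*ΔSCC4* 1 was lower, and against clone 3.3 1 was higher, TTLL6 (1.31), and 2 lower. None passed between the clones or between the controls (0 and 1 at an unadjusted p under 0.05, 0 with DESeq2 in both), and 1 positive and 2 negative values passed in the interaction.

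Of the 11 TALE cofactors, none passed in clone 3.3, *ΔSCC4*, *ΔWAPL*/*ΔSCC4*, between the clones or between the controls in edgeR, with 1, 1, 3, 1 and 0 at an unadjusted p under 0.05 and 0 with DESeq2 in each. In clone 1.14, 3 were higher and 3 lower, with PBX4 at -1.01, but 2 passed with DESeq2, and over both clones 2 were higher and 2 lower, with 4 in DESeq2. Against clone 3.3 *ΔWAPL*/*ΔSCC4* cells had 1 higher and 1 lower, and PBX4 was the 1 cofactor with an interaction, of 1.22. MEIS1, a frequent partner of HOXA9, stood at 18.1 ± 3.53 CPM in control A, 20.9 ± 1.503 in clone 3.3, 25.3 ± 1.56 in *ΔSCC4*, 20.3 ± 2.26 in *ΔWAPL*/*ΔSCC4*, 21.8 ± 1.24 in control B and 23.4 ± 1.595 in clone 1.14. Non-coding transcripts of the clusters were not among the genes counted and were not analysed here.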

How the data were processed

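RNA of 18 HAP1 samples in 6 groups of 3 was measured with strand-specific libraries of polyadenylated RNA. The authors aligned reads with TopHat (2.1.1 in the study's methods, 2.0.9 in the submitters' processing notes, which also name hg19) and deposited, for each gene, raw read counts made with HTSeq. The annotation release is not given in the sources used here. Reads on no gene, between 20.3% and 22.6% of a sample's total and mostly not uniquely aligned, stayed out of library sizes and tests. Symbols were found for 19637 of 20329 identifiers (96.6%), and exon lengths and positions came from GENCODE on GRCh37, which need not be the authors' annotation.

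Each comparison was fitted over all genes with edgeR 4.0.16 (R 4.3.3): TMM scaling, default filterByExpr, the quasi-likelihood test, and p adjusted by Benjamini-Hochberg with a threshold of 0.05. Dividing the size of the log2 fold change by the root of F gave its SE. Depth was 10007646 to 20711127 counts on genes per sample, with a median of 16177867. No replicates were identical, and pairs differed by a chi-square per degree of freedom of 1.606 to 51.995, above sampling noise. The exact interval and the floor of 3 counts cover counting error only. An exact permutation test of 3 samples against 3 cannot go below 0.1, so none was run.

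The HOX genes and the gene lists were chosen with earlier results of these data known. Sample values are given for genes past the threshold in at least 1 of 9 comparisons and for the most expressed gene of each cluster, full statistics for at most 6 genes per comparison, and list genes are named from an absolute log2 fold change of 1, at most 3 per direction. MEIS1, CYP26B1, ATP5MC2, VIM and CDH2 are described outside that rule, after their values were seen. One marker gene of the list is not reported here. Replicate numbers were taken as pairing control A with *ΔSCC4*, where the deviations from the group means correlated at 0.675, 0.115 and 0.615, all above 0.1, from the data and not the labels. Alternatives were DESeq2 1.42.0, scaling by its size factors, testing without a filter, a minimum of 10 counts in each sample, a joint fit of the 18 samples, the replicate block and leaving out each replicate. The fits were tested on simulated data.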

Additional observations from a re-analysis of the deposited data

Results flagged for a closer look

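The groups held 3 samples each, too few for a test of single outlying samples. What is listed here are effects that differed between groups by a test of the difference itself. The *ΔWAPL* effect differed between the clones at ALDH1A2, by 1.265 on the log2 scale, and at CYP26B1 by -0.63. ALDH1A2 stood at 4.13 ± 0.678 CPM in clone 3.3 and 4.45 ± 0.693 in clone 1.14. The controls stood further apart, at 12.95 ± 0.437 CPM in control A and 33.13 ± 0.439 in control B.

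The effect of losing WAPL differed with SCC4, as an interaction on the log2 scale in edgeR, at 4 HOX genes: HOXB9 (0.926), HOXD13 (0.751), HOXC11 (3.934) and HOXA2 (-1.726). These were 14.3% of the 28 HOX genes tested, near the 11.3% of all genes. The value of HOXC11 turns on 1 read in *ΔSCC4*, and that of HOXA2 on between 22 and 41 reads per group. HOXA2 entered the test only through clone 3.3 and *ΔSCC4*, the groups where it is high. Among genes of the lists with an absolute value of at least 1 it differed at PBX4 (1.224), TTLL6 (1.704), CALCOCO1 (-1.225), STRA6 (3.03), CRABP2 (2.866), CRABP1 (2.755), ALDH1A2 (-1.384) and CDX2 (-1.098), and below that size at ATP5MC2 (-0.87) and CYP26B1 (-0.78). The attached-cell markers CDH2 (-1.14) and VIM (-0.66) passed too. CRABP2 stood at 12 ± 1.598 CPM in control A, 4.17 ± 0.478 in clone 3.3, 2.13 ± 0.365 in *ΔSCC4* and 5.26 ± 0.723 in *ΔWAPL*/*ΔSCC4*, and STRA6 at 8.25 ± 0.615, 2.68 ± 0.227, 2.82 ± 0.605 and 7.52 ± 0.995 in the same order. The cause of these differences was not tested.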

How the results depend on the processing

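No log2 fold change of a HOX gene that had passed in a comparison changed sign there under any alternative run. Values that had not passed were not checked for sign. Among refits of single genes, 465 stayed on their side of the threshold and 71 lost the call. Calls lost because the gene no longer passed the filter are not among these. HOXB6 and HOXC11 in clone 3.3 were lost in that way with at least 10 counts in every sample. The count of HOX genes past the threshold in clone 3.3, 5 in the report, was 3 with at least 10 counts in every sample and 9 in one fit over all 18 samples, while the share of all genes went from 8.07% to 6.12% and 13.5%. In clone 1.14 it was 5 with DESeq2 (16.2% of all genes) instead of 8. For *ΔSCC4*, 4 became 9 in one fit over all samples (19.7% of all genes) and 12 with the replicate block (46.0%). For *ΔWAPL*/*ΔSCC4*, 6 became 3 with at least 10 counts (5.6%). Against clone 3.3, 2 became 4 in one fit over all samples (11.5%), the interaction went from 4 to 2 with at least 10 counts (8.9%), and the comparison of the controls from 1 to 4 in one fit (3.14%). The filter on 10 counts removed low genes such as HOXC11, and the one fit shares its spread over all samples; other causes were not tested. Leaving out 1 library gave 3 to 6 in clone 3.3, 5 to 8 in clone 1.14, 8 to 10 over both clones, 1 to 5 in *ΔSCC4*, 3 to 8 in *ΔWAPL*/*ΔSCC4*, 2 to 3 against clone 3.3, 2 to 4 in the interaction, 0 to 1 between controls and 0 to 0 between the clones. The share of all genes then ranged from 5.44% to 9.35% in clone 3.3, 11.1% to 37.9% in clone 1.14 and 14.3% to 22.2% over both clones. It was 5.25% to 18.3% in *ΔSCC4*, 4.62% to 12.2% in *ΔWAPL*/*ΔSCC4* and 6.79% to 14.2% against clone 3.3. In the interaction it was 8.6% to 13.5%, between controls 0.0% to 0.85% and between the clones 1.69% to 2.88%. Other replicate numbers did not pair samples (deviations between control A and clone 3.3 correlated at -0.515, -0.001 and -0.487, and between control B and clone 1.14 at 0.049, 0.319 and 0.196, with 1 under 0.1 and the block raising calls over all genes from 2536 to 3030); with them as a block, HOXD11 in clone 3.3, HOXB4 in clone 1.14 and HOXB4, HOXB13 and HOXD10 over both clones lost their calls (adjusted p = 0.0688, 0.0507, 0.0685, 0.0584 and 0.0907), which left 4, 7 and 6 HOX genes, and HOXB6 in *ΔWAPL*/*ΔSCC4* and HOXB4 against clone 3.3 gained one. Without TMM factors the cluster A sum in clone 1.14 was 257.4 CPM instead of 253.9. Scaling by size factors moved the median of all genes by at most 0.0189. Depth limits the 10 genes that passed the count filter in no comparison.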
